A study of Mus musculus with 48 samples.

Results

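The comparison described here asked which genes of young mouse epidermal stem cells were expressed in a pattern that repeats after 12 h. The 8 arrays of cells collected at Zeitgeber time (ZT) 8 or 20 were set against the 8 arrays collected at ZT4 or ZT16, which are 16 of the 48 arrays of the study. The arrays were chosen by age and time of day alone. All mice were wild-type females of the strain C57B6/J, the tissue was epidermis, and the labels name no treatment. The young mice were 8 weeks old and the aged mice, used here for 1 comparison, were 102 to 116 weeks old. Cells were collected at ZT0, 4, 8, 12, 16 and 20, with 4 mice and 4 arrays at each time and age. The sources used here do not give the light schedule, the days on which cells were harvested and arrays hybridised, or how pure the cells were, so anything shared by the 4 arrays of a time cannot be told apart from the time itself.

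Epidermal stem cells sit in the basal layer of the skin, where they divide to renew the layers above. Like most cells they carry a circadian clock, in which transcriptional activators switch on their own repressors so that a gene usually peaks at 1 time of day. Some genes peak more than once a day, and rhythms with a period of 12 h have been described in mouse liver, among them genes that fold and process proteins in the endoplasmic reticulum (ER).

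A level is a log2 expression value of 1 probe set per gene, and a difference is the mean of the ZT8 and ZT20 arrays minus the mean of the ZT4 and ZT16 arrays. ZT4 lies 12 h from ZT16 and ZT8 lies 12 h from ZT20, so a wave with a period of 24 h adds as much to one time of a side as it takes from the other and leaves no difference. What remains is a 12 h pattern, or a change at 1 time that is large enough to move the mean of its side. A gene was therefore counted only if it was called by limma (Benjamini-Hochberg adjusted p under 0.05 over 12823 tested genes) and if its means at both times of one side lay above its means at both times of the other. The steps ZT8 minus ZT4 (by day) and ZT20 minus ZT16 (by night) share no array, so a gene that passed in both showed the pattern on 2 separate sets of 8 arrays.

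Genes higher at ZT4 and ZT16 outnumbered genes higher at ZT8 and ZT20. Limma called 726 genes (5.66%), 562 (4.38%) higher at ZT4/ZT16 and 164 (1.28%) higher at ZT8/ZT20. Of the 726, 629 (4.91%) had both times of each side in agreement, and of these 507 (3.95%) were higher at ZT4/ZT16 and 122 (0.951%) were higher at ZT8/ZT20. The share higher at ZT4/ZT16 was thus 80.6%, and with cyclic loess normalisation of the arrays it was 64.8% (412 against 224 genes). The other 97 called genes did not have both times in agreement. At the threshold, Serpina3i was just inside (adjusted p = 0.0497) and Cul7 just outside (adjusted p = 0.0501).

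The differences were small. The median fold was 1.32 for genes higher at ZT4/ZT16 and 1.36 for genes higher at ZT8/ZT20, and 11 and 5 genes reached 2-fold. In 64 genes (0.499%) all 8 arrays of ZT4 and ZT16 lay above all 8 of ZT8 and ZT20, and in 7 genes (0.0546%) the reverse held. Agreement of the times alone, without the test, was found in 31.7% of genes, 21.5% higher at ZT4/ZT16 and 10.2% higher at ZT8/ZT20. The median difference over all tested genes was -0.02.

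Few genes passed in both separate steps. The day step passed in 1337 genes (10.4%) and the night step in 943 (7.35%), and 87 genes (0.678%) passed in both with the same direction. A further 109 genes (0.85%) passed in both with opposite directions, which a 24 h rhythm gives. Of the 87 genes, 73 (0.569%) were higher at ZT4 and ZT16 and 14 (0.109%) were higher at ZT8 and ZT20. The count was 55 without the ZT16 array of replicate 4 or the ZT20 array of replicate 2, and 56 without the ZT8 array of replicate 1. With the cell mixture covariates described below it was 17. Over all tested genes the day and night steps correlated by -0.14. Of the 507 genes higher at ZT4/ZT16, the day step was the larger in 326. Of the 122 genes higher at ZT8/ZT20, the night step was the larger in 76. Among the 507, 257 genes passed in the day step only, 120 in the night step only, 73 in both and 57 in neither. Among the 122, 36 passed in the day step only, 61 in the night step only, 13 in both and 12 in neither.

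**Figure D1:**
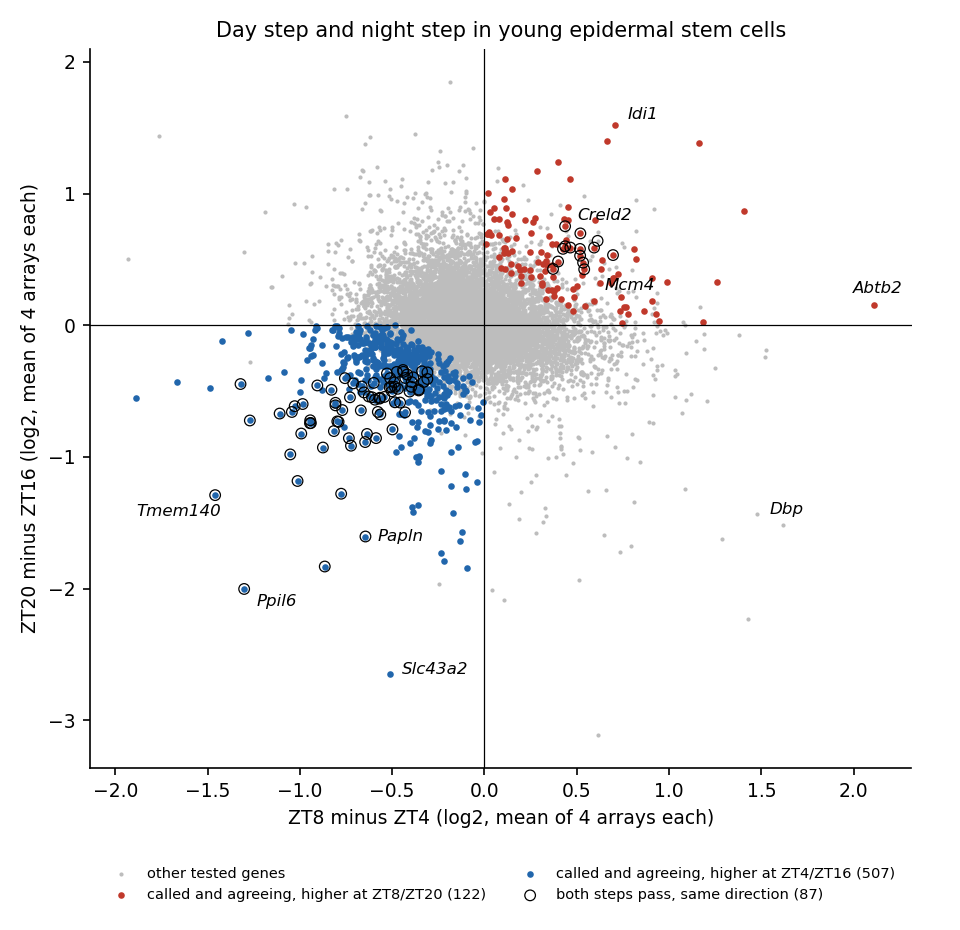
Each point is 1 of 12823 tested genes in young epidermal stem cells, with ZT8 minus ZT4 on the horizontal axis and ZT20 minus ZT16 on the vertical axis (log2, means of 4 arrays each). Blue points mark the 507 genes called and agreeing that were higher at ZT4/ZT16, red points the 122 higher at ZT8/ZT20, and circles the 87 genes that passed in both steps; many points lie near an axis, where 1 step carried the difference.

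The arrays held markers of basal, suprabasal and upper follicle cells, and 12 of 14 measured bulge markers lay above the limit for dim genes. All 11 measured basal markers lay above the limit for dim genes, and their mean level per array ranged from 11.50 to 11.60 at ZT8/ZT20 and from 11.45 to 11.63 at ZT4/ZT16. Of 13 suprabasal markers 12 lay above the limit, with means per array of 8.89 to 9.22 and 8.74 to 9.24, and Krt10, a keratin of differentiating cells, was at 11.74 and 11.62. The upper follicle and sebaceous list (12 of 13 above the limit) ranged from 8.17 to 8.53 and from 8.09 to 8.47. Limma called no basal or suprabasal marker (0 of 11 and 0 of 12), while 2 and 3 had an unadjusted p under 0.05. In 6 technical measures per array (array median, 3' against 5' signal of actin and of Gapdh, spiked hybridisation controls, background of high-GC probes, array weight) no difference between the sides passed in exact 2-sided permutation tests, with adjusted p between 0.524 and 0.820. The ZT4 array of replicate 1 had the lowest weight, 0.29, and without it 689 genes were called and agreeing. With cell mixture scores of the suprabasal, bulge, Langerhans and myeloid, T cell and fibroblast lists as covariates, 358 genes were called and agreeing. Of these, 321 were among the 629. Each added score also takes precision from the fit. In bulk RNA fewer cells of a type and less RNA per cell cannot be told apart.

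Ppil6, a cyclophilin-family gene (peptidyl-prolyl isomerases), had the largest difference in either direction. Its levels were 8.12, 8.24, 8.25 and 7.90 at ZT4, 6.42, 6.93, 7.24 and 6.70 at ZT8, 8.60, 8.20, 8.66 and 8.61 at ZT16, and 6.37, 6.16, 6.71 and 6.80 at ZT20. All 8 arrays of ZT4 and ZT16 lay above all 8 of the other times. The difference was -1.65 ± 0.12 (SE), a fold of 3.14, with a limma adjusted p of 1.76e-07. Both steps passed, with -1.30 by day (adjusted p = 1.56e-04) and -2.0 by night (adjusted p = 7.29e-07). On the arrays that the comparison did not use, Ppil6 was high at ZT0, with a mean of 8.23, and low at ZT12, with a mean of 6.86. The course of Ppil6 thus stayed high from ZT16 to ZT4 apart from ZT20.

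Papln, which encodes the extracellular matrix glycoprotein papilin, had an equally small adjusted p. Levels were 6.96, 6.92, 6.57 and 6.64 at ZT4, 6.06, 6.09, 6.15 and 6.21 at ZT8, 7.80, 7.38, 7.41 and 7.44 at ZT16, and 5.93, 5.94, 5.96 and 5.80 at ZT20. The sides did not overlap, and the peak at ZT16 was the higher of the peaks. The difference was -1.12 ± 0.08, a fold of 2.18 (limma adjusted p = 1.76e-07). At ZT0 and ZT12 the means were 5.84 and 6.48, both under the ZT4 and ZT16 means, so Papln had a peak at ZT4 and another at ZT16 on all 6 times.

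A pair of enzymes of sphingolipid breakdown shared the pattern. Both were chosen by their values in this comparison, and no list of sphingolipid genes was counted. Smpd2, a neutral sphingomyelinase that releases ceramide, had levels of 8.07, 8.02, 8.13 and 7.83 at ZT4, 7.22, 7.25, 7.12 and 7.21 at ZT8, 8.42, 8.03, 8.03 and 8.18 at ZT16, and 7.24, 7.48, 7.20 and 7.53 at ZT20. Acer2, the Golgi alkaline ceramidase that splits ceramide, had levels of 7.93, 8.10, 7.94 and 7.77 at ZT4, 6.99, 6.49, 7.26 and 6.96 at ZT8, 8.08, 8.03, 8.13 and 8.17 at ZT16, and 6.79, 6.60, 7.03 and 7.25 at ZT20. In neither gene did the sides overlap, and in both the levels at ZT4 and ZT16 were close. The difference of Smpd2 was -0.81 ± 0.08, a fold of 1.75, and that of Acer2 was -1.10 ± 0.10, a fold of 2.14 (limma adjusted p = 9.56e-06 for each). Both genes were also called, agreeing and lower at ZT8/ZT20 in aged cells, Smpd2 with -0.59 and Acer2 with -0.67.

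Tmem140, which encodes a membrane protein, was the gene with the third largest fold. Levels were 9.64, 9.26, 9.44 and 9.16 at ZT4, 7.75, 7.84, 8.16 and 7.91 at ZT8, 9.74, 8.97, 8.65 and 8.98 at ZT16, and 7.62, 7.36, 7.87 and 8.32 at ZT20. The sides did not overlap, though the highest ZT20 array came near the lowest ZT16 array. The difference was -1.37 ± 0.15, a fold of 2.59 (limma adjusted p = 1.77e-05).

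The other genes of this kind covered lipid handling, the cytoskeleton and signalling. Pnpla7, a lysophospholipase, ranged from 6.67 to 7.82 (median 7.22) at ZT4/ZT16 and from 5.85 to 6.44 (median 6.20) at ZT8/ZT20, with a difference of -1.03 ± 0.12 and a limma adjusted p of 3.46e-05. Ablim3, an actin-binding LIM protein, ranged from 10.17 to 10.43 (median 10.32) against 9.30 to 9.76 (median 9.54), with a difference of -0.80 ± 0.08 and an adjusted p of 1.12e-05. Stk38, a kinase of the NDR family, ranged from 8.06 to 8.61 (median 8.33) against 7.61 to 7.85 (median 7.73), with a difference of -0.62 ± 0.07 and an adjusted p of 6.15e-05. In all 3 genes the sides did not overlap and both steps passed. Sash1, a scaffold protein, and Lurap1l passed in both steps with differences of -0.58 and -0.90. The second probe set of Stk38 and that of Sash1, which is dim, each had -0.03, and the means of the probe sets were -0.32 and -0.31 (adjusted p = 0.00428 and 0.00140). Polg2, the accessory subunit of the mitochondrial DNA polymerase, ranged from 7.10 to 7.92 against 6.03 to 6.62, with steps of -1.05 by day and -0.98 by night.

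Some of the largest differences rested on 1 of the 2 steps. Slc43a2, a transporter of neutral amino acids, had a difference of -1.58 ± 0.16 (fold 3.00, limma adjusted p = 1.36e-05), made up of -0.51 by day (adjusted p = 0.163) and -2.65 by night (adjusted p = 9.27e-07). Apol8, of the apolipoprotein L family, had the opposite split, with -1.89 by day and -0.55 by night, and the night step did not pass. Fam71a, with a difference of -1.05 ± 0.15, had -1.66 by day (adjusted p = 1.56e-04) and -0.43 by night (adjusted p = 0.247). Sectm1b, a secreted and membrane protein that binds CD7, passed in both steps, with -0.86 by day and -1.83 by night, and its sides did not overlap (7.19 to 8.38 against 5.60 to 7.18).

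**Figure D2:**
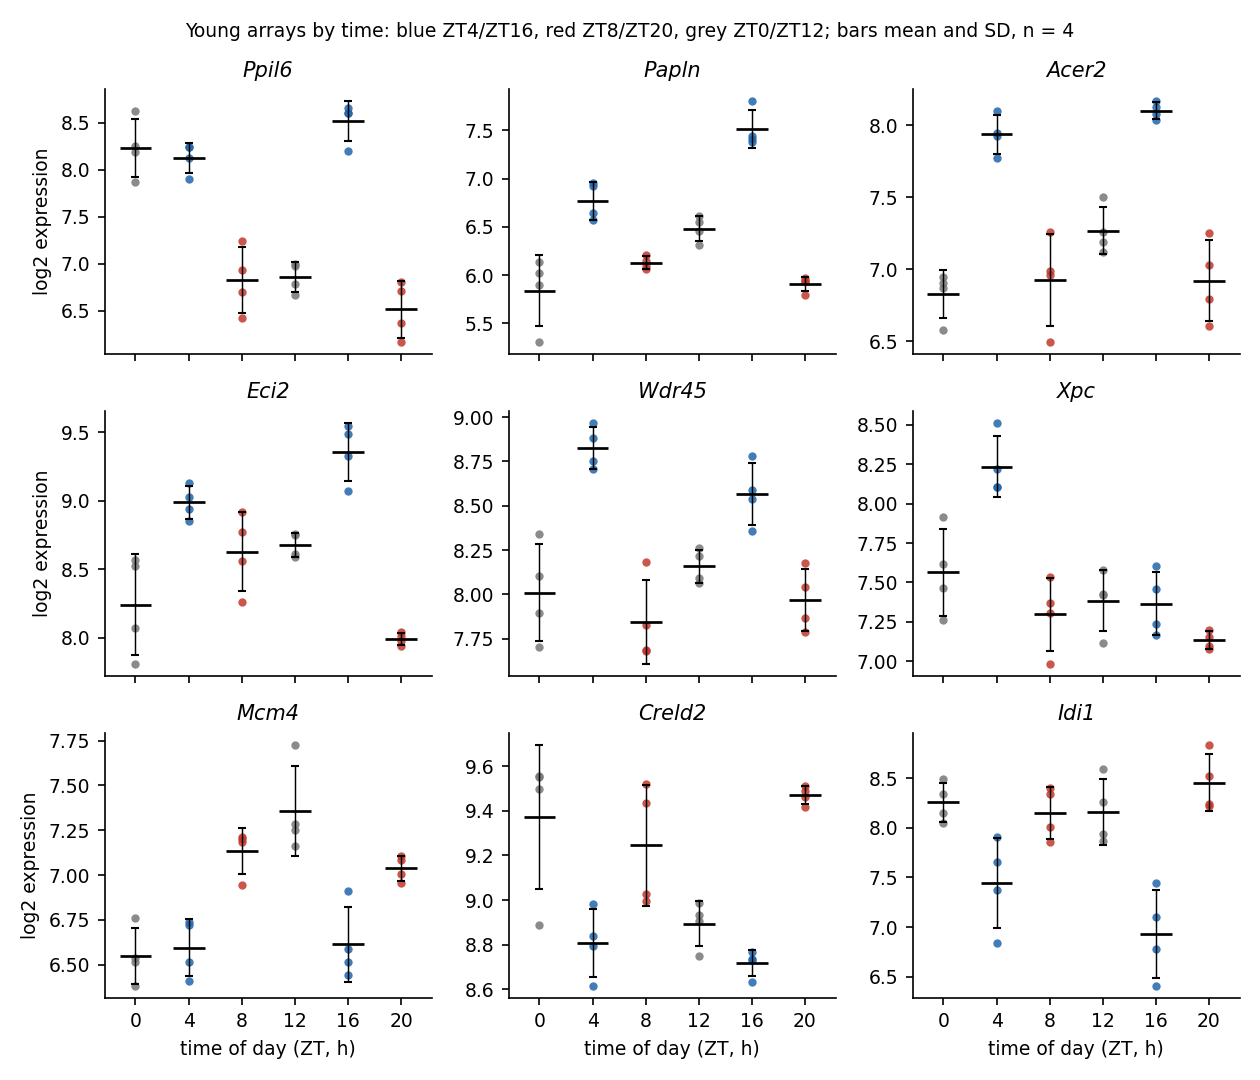
Each panel shows the log2 level of 1 gene on all 24 young arrays by time of day (ZT, h), with points for arrays, a long bar for the mean and whiskers for the SD (n = 4); blue is ZT4/ZT16, red ZT8/ZT20 and grey the times that the comparison did not use. Papln and Acer2 have a peak at ZT4 and another at ZT16 on all 6 times, Ppil6 is also high at ZT0, Xpc is high at ZT4 alone, and Mcm4 is highest at ZT12.

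Among the genes higher at ZT4/ZT16 were 13 of a list on fatty acid oxidation, which holds enzymes and a regulator. Of 36 tested genes of fatty acid oxidation, 13 were called and agreeing, all higher at ZT4/ZT16, where the background is 3.95%, and 33 of 36 differences were below 0 (median -0.21, against -0.02 over all genes). This list, and those of autophagosome formation and nucleotide excision repair below, were drawn up from textbook pathways after the values of some members had been seen, so their counts are a description. Between 10 and 14 members passed when any 1 of the 16 arrays was left out.

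Eci2, an isomerase of the oxidation of unsaturated fatty acids, had levels of 9.13, 9.03, 8.85 and 8.94 at ZT4, 8.26, 8.92, 8.77 and 8.56 at ZT8, 9.32, 9.54, 9.07 and 9.49 at ZT16, and 7.94, 7.97, 8.04 and 8.01 at ZT20. The 4 ZT20 arrays were the lowest, and 1 ZT8 array (8.92) lay above the lowest ZT4 array. The difference was -0.86 ± 0.09, a fold of 1.82 (limma adjusted p = 1.98e-05). Decr1, the mitochondrial dienoyl-CoA reductase, had a difference of -0.58 ± 0.11 and passed in both steps (-0.63 by day, -0.54 by night). Amacr, the racemase of branched fatty acids, passed in both steps too, and its sides did not overlap (6.67 to 7.33 against 6.22 to 6.55).

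A pair of carnitine enzymes and the receptor Ppara were among the 13. Cpt1a, which loads long-chain fatty acids onto carnitine, ranged from 8.78 to 9.47 (median 9.05) at ZT4/ZT16 and from 7.85 to 8.95 (median 8.53) at ZT8/ZT20, with a difference of -0.56 ± 0.11 and a limma adjusted p of 0.00609. Cpt2, which takes the carnitine off inside the mitochondrion, had a difference of -0.52 ± 0.12. The carnitine genes Cpt1b (-0.22), Slc25a20 (-0.26), Crat (-0.06) and Crot (0.03) were tested and not called. Ppara, the nuclear receptor that drives many of these genes, had a difference of -0.49 ± 0.10 (adjusted p = 0.00558), with -0.57 by day and -0.41 by night, and the night step did not pass (adjusted p = 0.0886). Hadhb and Acadl, of the oxidation cycle itself, had differences of -0.41 and -0.34, and the thioesterases Acot1 and Acot2 of -0.69 and -0.68. Angptl4, a secreted inhibitor of lipoprotein lipase that Ppara is known to induce, had a difference of -0.97 ± 0.20 (adjusted p = 0.00659), nearly all from the night step of -1.84 (adjusted p = 4.92e-04; by day -0.09). It was the single called and agreeing gene among 16 induced by glucocorticoids (background 3.95%). Its times no longer agreed without the ZT4 or the ZT8 array of replicate 1. Of the same 16 genes, Pdk4 (-1.25, limma adjusted p = 4.09e-04) and Ddit4 (-0.47, limma adjusted p = 0.0346) were also called, without agreement of the times. Over all genes 4.38% were called in this direction. Pdk1, a kinase that restrains pyruvate dehydrogenase, did not overlap between sides (8.99 to 9.20 against 8.26 to 8.87) and had a difference of -0.58 ± 0.08 (adjusted p = 1.39e-04).

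Autophagosomes enclose material for the lysosome, and 12 genes of a list on their formation were higher at ZT4/ZT16 as well. Of 37 tested genes of autophagosome formation, 12 were called and agreeing, all in this direction (background 3.95%), and 30 differences were below 0 (median -0.14). The range was 10 to 13 when any 1 array was left out, and the count was 7 with the cell mixture covariates. Wdr45, a lipid-binding protein that acts as the autophagosome membrane grows, had levels of 8.97, 8.88, 8.75 and 8.71 at ZT4, 7.68, 8.18, 7.68 and 7.82 at ZT8, 8.78, 8.54, 8.36 and 8.59 at ZT16, and 7.86, 7.79, 8.04 and 8.18 at ZT20. The sides did not overlap, and the difference was -0.79 ± 0.09, a fold of 1.73 (limma adjusted p = 3.46e-05).

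The mitophagy genes Bnip3 and Pink1 were among the 12, and Bnip3l, the paralog of Bnip3, was not (-0.04). Bnip3, which marks mitochondria for removal, ranged from 10.03 to 10.51 against 9.34 to 9.90, without overlap, and passed in both steps (difference -0.72 ± 0.09, limma adjusted p = 1.36e-04). Pink1, the kinase that flags damaged mitochondria, ranged from 9.82 to 10.34 against 9.31 to 9.87, with a difference of -0.57 ± 0.08 and an adjusted p of 4.56e-04. Zfyve1 (-0.68 ± 0.08) and Wipi2 (-0.38 ± 0.07), which mark and build the nascent membrane, passed in both steps. Ulk1, the kinase that starts autophagy, had a difference of -0.35 ± 0.08 (adjusted p = 0.0105), and Gabarapl1, which is attached to the membrane, of -0.34 ± 0.07 (adjusted p = 0.00508).

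A broader list of autophagy and lysosome genes held 4 called and agreeing genes of 26, all higher at ZT4/ZT16 (background 3.95%). Besides Ulk1, Gabarapl1 and Atg9a (difference -0.26), the fourth was Ctsl, a lysosomal protease, with -0.38 ± 0.06 (limma adjusted p = 0.00158). In Ctsl the day step was -0.03 and the night step -0.74. The count was 2 without the ZT8 array of replicate 4, and 2 with the cell mixture covariates. It was also 2 when 8 arrays were compared with 8 without the 4 time means.

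Nucleotide excision repair removes the bulky lesions that ultraviolet light leaves in DNA. Of its 33 tested genes 9 were called and agreeing, all higher at ZT4/ZT16 (background 3.95%), with a median difference of -0.06. The count was 5 without the ZT16 array of replicate 1 or the ZT20 array of replicate 2, and 4 with the cell mixture covariates. Xpc, which finds the lesion, had levels of 8.51, 8.22, 8.11 and 8.10 at ZT4, 6.98, 7.54, 7.37 and 7.30 at ZT8, 7.60, 7.17, 7.46 and 7.24 at ZT16, and 7.10, 7.16, 7.20 and 7.08 at ZT20. Only the ZT4 arrays stood apart. The difference of -0.59 ± 0.09 (limma adjusted p = 6.30e-04) came from -0.94 by day (adjusted p = 2.41e-04), while the night step was -0.23 (adjusted p = 0.324). Xpa, which verifies the lesion, did not overlap between sides (5.65 to 6.41 against 5.20 to 5.62) but showed the same split, with -0.88 by day and -0.29 by night. Its other probe sets had differences of -0.20 and -0.07. Ddb2, the damage sensor that works ahead of Xpc, passed in both steps with -0.50 in each. In the broader DNA repair list of 25 genes, Xpa, Xpc, Ddb1 and Ddb2 were called and agreeing, higher at ZT4/ZT16 (background 3.95%). Chek1 was called and agreeing, higher at ZT8/ZT20 (background 0.951%).

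Among the genes higher at ZT8/ZT20 were 5 of DNA replication. Of 33 tested genes of S phase and replication 5 were called and agreeing, all in this direction, where the background is 0.951%, and 30 of the 33 differences were above 0 (median 0.19). They were Mcm2, Mcm3, Mcm4, Mcm5 and Uhrf1. The Mcm genes encode subunits of the helicase that opens DNA ahead of the replication fork, and Uhrf1 keeps methylation in place on copied DNA. All 4 Mcm genes passed in both steps. Without the ZT4 array of replicate 1 the count was 8, and with cyclic loess normalisation 9.

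Mcm4 had levels of 6.52, 6.74, 6.41 and 6.72 at ZT4, 7.18, 7.21, 6.95 and 7.20 at ZT8, 6.59, 6.51, 6.91 and 6.44 at ZT16, and 7.09, 7.11, 7.01 and 6.95 at ZT20. All 8 arrays of ZT8 and ZT20 lay above the other 8, narrowly at the closest pair. The difference was 0.48 ± 0.08, a fold of 1.40 (limma adjusted p = 0.00118). Mcm3 did not overlap either, at 8.01 to 8.35 against 7.51 to 8.00 (difference 0.40 ± 0.08, adjusted p = 0.00403). In Mcm5 (0.53 ± 0.10, adjusted p = 0.00262) and Mcm2 (0.59 ± 0.12, adjusted p = 0.00430) the sides overlapped. Chek1, the kinase that holds cells with stalled forks, did not overlap, at 4.87 to 5.43 against 4.23 to 4.82 (difference 0.52 ± 0.09, adjusted p = 0.00268). Its 4 other probe sets had 0.27, 0.05, 0.28 and 0.14, and the mean of all 5 had 0.25 (limma adjusted p = 0.0306). Mcm5 had 0.31 as the mean of its probe sets, the other being dim.

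A wave of 12 h alone has the same level at ZT0 and ZT12, and these genes did not. Mcm4 had means of 6.55 at ZT0 and 7.36 at ZT12, a difference of 0.81 (limma adjusted p = 2.38e-04). The same difference was 1.54 in Mcm3, 1.57 in Mcm5, 1.66 in Mcm2 and 1.21 in Chek1, each larger than the difference between the sides. In Mcm5 both the 12 h component (adjusted p = 0.0378) and the 24 h component (adjusted p = 2.45e-04) passed over all 24 young arrays. The 4 Mcm genes and Chek1 had their highest mean at ZT12, a fall to ZT16 and a smaller rise at ZT20.

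Most genes of G2 and mitosis did not pass the test. Only Mad2l1, of the spindle checkpoint, was called and agreeing among 30 (background 0.951%). Its difference was 0.51 (limma adjusted p = 0.0126), with steps of 0.12 by day and 0.89 by night. Ttk (0.50, limma adjusted p = 0.0130) and Ube2c (0.45, limma adjusted p = 0.0303) were also called, without agreement of the times. Over all genes 1.28% were called higher at ZT8/ZT20. The median difference of the list was 0.23 and 26 of the 30 were above 0.

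To show a promoter of this group, RefSeq promoters (GRCm38.p6, 300 bases around the start site) were searched on both strands for TTTGGCGC, a form of the E2F site of cell cycle genes. The word occurs in 0.514% of 32851 promoters, and in 2 of the 7 searched replication and checkpoint genes with a sequence, Mcm5 and Mcm3. The Mcm5 stretch at chr8:75109320-75109407 (plus strand) holds it on the minus strand, 149 bases before the start site. The capitals mark the match.

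Mcm5: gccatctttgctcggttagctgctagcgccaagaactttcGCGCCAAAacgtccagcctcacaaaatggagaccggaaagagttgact

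The unfolded protein response raises chaperones and other helpers when proteins pile up in the ER. Of 28 tested genes 4 were called and agreeing, all higher at ZT8/ZT20 (background 0.951%), and 24 of 28 differences were above 0 (median 0.17). They were Creld2, Hyou1, Manf and Chac1. The count was 2 without any 1 of the ZT16 arrays of replicates 1 and 2, the ZT20 arrays of replicates 1 and 2 and the ZT8 arrays of replicates 1 and 4, and 1 with the cell mixture covariates. Limma called no gene of ER translocation and glycosylation (0 of 24; 2 at an unadjusted p under 0.05). Of 29 genes of vesicle transport from the ER 1, Sec24a, was called and agreeing (background 0.951%). Sec24a (0.45, limma adjusted p = 0.0289) kept its call in 8 of 16 fits that left out 1 array, and lost it without replicates 1 or 3 of ZT4, ZT8 or ZT20 or replicates 2 or 4 of ZT16, with adjusted p up to 0.0676.

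Creld2, an ER protein induced by ER stress, was the clearest of them. Its levels were 8.98, 8.79, 8.62 and 8.84 at ZT4, 9.52, 9.44, 9.03 and 9.0 at ZT8, 8.74, 8.63, 8.73 and 8.77 at ZT16, and 9.46, 9.49, 9.42 and 9.51 at ZT20. All 8 arrays of ZT8 and ZT20 lay above the other 8, and the 4 ZT20 arrays were nearly equal. The difference was 0.59 ± 0.08, a fold of 1.51 (limma adjusted p = 2.40e-04), and both steps passed. At ZT0 the mean was 9.37, near the high side, and at ZT12 it was 8.90, near the low side.

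The other 3 genes were less even. Hyou1, an ER chaperone, had 9.58, 9.55, 9.46 and 9.52 at ZT20 against 8.32, 8.64, 8.80 and 8.53 at ZT16, but its day step was 0.11 (difference 0.53 ± 0.11, limma adjusted p = 0.00569). Manf, a secreted ER stress factor, had a difference of 0.31 ± 0.09 (adjusted p = 0.0391). Chac1, which degrades glutathione and is induced by ER stress, had the largest fold of any gene higher at ZT8/ZT20, with a difference of 1.27 ± 0.35 and a fold of 2.42 (adjusted p = 0.0359). Its arrays overlapped widely, at 6.43, 5.28, 6.30 and 5.13 at ZT8 and 7.71, 7.02, 6.98 and 4.55 at ZT20, against 5.01, 4.42, 4.46 and 4.61 at ZT4 and 4.17, 5.18, 5.68 and 5.69 at ZT16. It kept its call in 6 of the 16 fits that each left out 1 array, with adjusted p up to 0.0811. The ZT8 arrays of replicates 2 and 4, the ZT20 array of replicate 4, the ZT4 array of replicate 1 and the ZT16 arrays of replicates 3 and 4 were those that could be left out without losing it.

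The ER stress element, which is CCAAT, 9 bases of any kind and then CCACG, was found on either strand in 0.119% of the promoters and in 1 of the 3 genes of this group with a sequence, Creld2. Its CCAAT end is itself a match to the CCAAT box, which occurs in 37.4% of promoters. In Creld2 the element lies on the minus strand, 126 bases before the start site, in the stretch chr15:88819480-88819578 (plus strand). The capitals mark it. Of the other words searched, the sterol response element TCACCCCAC (0.551% of promoters) was in 0 of 2 cholesterol genes and the CLEAR element core TCACGTGA of lysosomal genes (0.974%) in 0 of 10 genes, mostly of autophagy. No match says only that these letters are not in this window. The heat shock element (0.603%) was in 1 of 2 chaperone genes, Hsph1, and TTTCCCGC, another E2F form (1.07%), in 1 of 7, Mcm3.

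Creld2: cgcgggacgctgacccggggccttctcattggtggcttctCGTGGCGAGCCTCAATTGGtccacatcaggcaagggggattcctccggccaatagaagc

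The list of heat shock chaperones holds some mitochondrial members and a transcription factor. It gave 3 called and agreeing genes of 21, all higher at ZT8/ZT20 (background 0.951%), with a median difference of 0.08 over the list. Hsph1, a co-chaperone of Hsp70, had levels of 8.58, 8.71, 9.01 and 8.77 at ZT4, 9.41, 9.41, 8.99 and 9.33 at ZT8, 9.02, 9.27, 9.02 and 9.05 at ZT16, and 9.58, 9.85, 9.51 and 9.74 at ZT20. Only the lowest ZT8 array fell among the ZT4 and ZT16 arrays. The difference was 0.55 ± 0.08, a fold of 1.46 (limma adjusted p = 6.36e-04), both steps passed, and the mean at ZT0 (9.76) was the highest of the 6 times. Stip1, which links Hsp70 to Hsp90, had a difference of 0.32 ± 0.07 (adjusted p = 0.0126). Cryab, a small heat shock protein, had 0.82 ± 0.19 (adjusted p = 0.0141), and the mean of its probe sets had 0.40 with an adjusted p of 0.0754, so its call depended on the probe set.

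Cholesterol synthesis gave 2 of 18 genes, both higher at ZT8/ZT20 (background 0.951%), with a median difference of 0.24 and 14 of 18 above 0. Idi1, an isomerase that makes the building blocks of isoprenoids, had levels of 6.84, 7.38, 7.65 and 7.91 at ZT4, 8.34, 8.00, 7.86 and 8.40 at ZT8, 6.41, 7.10, 7.44 and 6.78 at ZT16, and 8.52, 8.84, 8.22 and 8.24 at ZT20. The sides overlapped at 1 ZT4 and 1 ZT8 array. The difference was 1.11 ± 0.16, a fold of 2.17 (limma adjusted p = 3.18e-04), with 0.71 by day (adjusted p = 0.0506) and 1.52 by night (adjusted p = 3.44e-04). Insig1, which holds back the activation of sterol synthesis, had 0.68 ± 0.18 (adjusted p = 0.0352) and kept its call in 8 of the 16 fits that left out 1 array, with adjusted p up to 0.0806. The call was lost without the ZT4 arrays of replicates 2 or 3, the ZT8 or ZT16 arrays of replicates 1 or 4, or the ZT20 arrays of replicates 1 or 2. The list's count was 1 without the ZT16 arrays of replicates 1 or 4, the ZT20 arrays of replicates 1 or 2, the ZT4 array of replicate 3 or the ZT8 arrays of replicates 1 or 4, and 4 without the ZT4 array of replicate 4.

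Further genes higher at ZT8/ZT20 had large but uneven differences. Lipg, the endothelial lipase, ranged from 7.49 to 8.45 (median 7.73) at ZT8/ZT20 and from 5.90 to 7.83 (median 6.56) at ZT4/ZT16, with a difference of 1.13 ± 0.24 (limma adjusted p = 0.00908). Abtb2 had a difference of 1.13 ± 0.25 that came from the day step of 2.11, with 0.15 by night. Vsnl1, a neuronal calcium sensor, had 1.03 ± 0.18, and Ppargc1b, a coactivator of mitochondrial genes, had 0.78 ± 0.14 (adjusted p = 0.00227). Parm1 had 0.73 ± 0.09 (adjusted p = 1.31e-04), with 0.28 by day and 1.17 by night.

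Prdm1, the repressor Blimp1, and Yipf6, a Golgi membrane protein, were weaker calls. Prdm1 had 0.80 ± 0.22 (limma adjusted p = 0.0400) and kept its call in 7 of 16 fits that left out 1 array, with adjusted p up to 0.0902, and lost it without replicate 1, 2 or 3 of ZT4, ZT8 or ZT20. Yipf6 had 0.70 ± 0.19 (adjusted p = 0.0368) and kept it in 6 of 16, with adjusted p up to 0.0804. It lost the call without any ZT20 array, the ZT16 arrays of replicates 1 or 4, the ZT8 arrays of replicates 1, 2 or 4, or the ZT4 array of replicate 2. With the mean of its probe sets Yipf6 had 0.38 (adjusted p = 0.0897). Spry1, an inhibitor of receptor tyrosine kinase signalling, did not overlap between the sides, at 8.92 to 9.43 against 8.23 to 8.88, and both steps passed (difference 0.50 ± 0.09, adjusted p = 0.00296). The same was true of Zfp365 (difference 0.61, adjusted p = 0.00119), and Wwc2 (0.32, adjusted p = 0.0205) did not overlap but passed in the day step only. Spry1, Zfp365 and Wwc2 were named after their values were seen, being 3 of the 7 genes without overlap on this side.

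**Figure D3:**
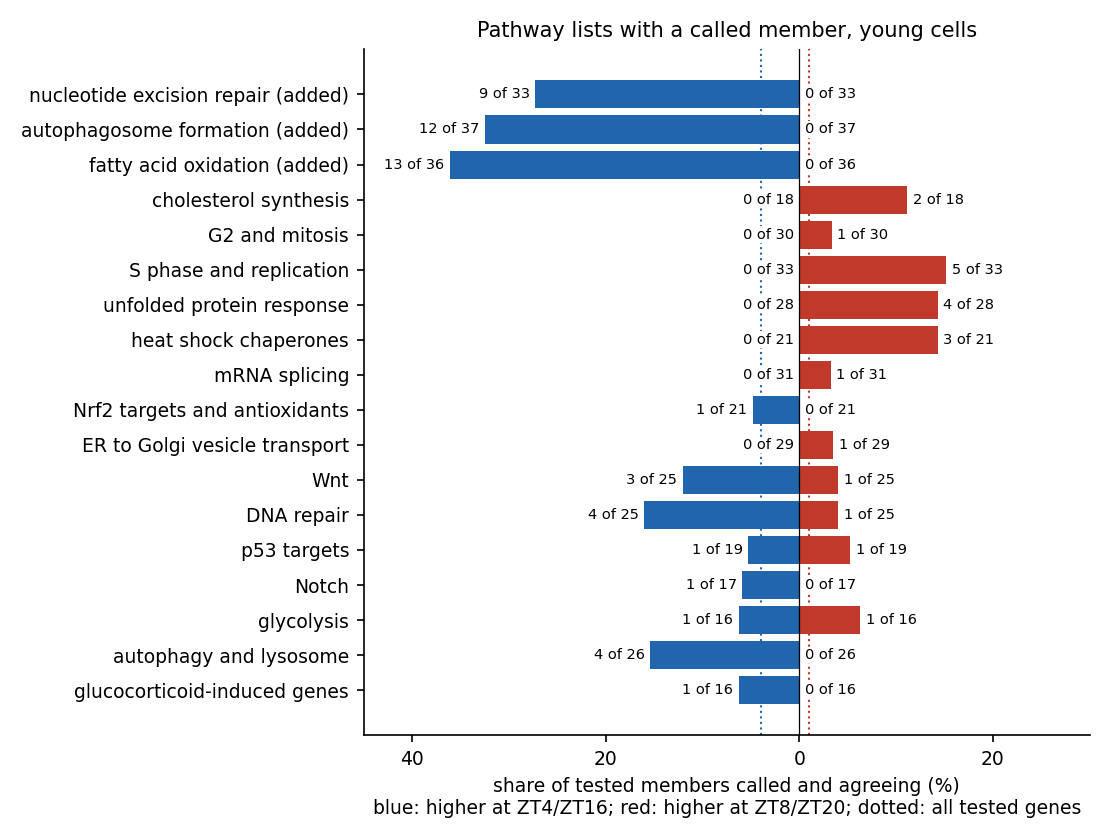
Bars give the share (%) of a list's tested genes that were called and agreeing, to the left for genes higher at ZT4/ZT16 and to the right for genes higher at ZT8/ZT20, with dotted lines at the shares over all 12823 genes (3.95% and 0.951%). Fatty acid oxidation (13 of 36), autophagosome formation (12 of 37) and nucleotide excision repair (9 of 33), which were added after values had been seen, point left, and S phase (5 of 33) and the unfolded protein response (4 of 28) point right.

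Of the remaining lists few held a called gene. None of the tested genes of the proteasome, ribosome biogenesis, mitochondrial ribosome, oxidative phosphorylation, immediate early, interferon, stressed keratinocyte or basement membrane lists was called by limma. At an unadjusted p under 0.05 there were 1 of 28 genes of the proteasome, 2 of 28 of ribosome biogenesis, 3 of 28 of the mitochondrial ribosome, 2 of 32 of oxidative phosphorylation and 0 of 23 immediate early genes. There were also 2 of 16 interferon-stimulated genes, 6 of 13 genes of stressed keratinocytes and 4 of 19 of the basement membrane. The p53 targets gave 1 gene in each direction of 19, both sestrins that restrain growth under stress. Over all genes 3.95% were called and agreeing higher at ZT4/ZT16 and 0.951% higher at ZT8/ZT20, so 1 of 19 is near the first share. Sesn1 had -0.62 ± 0.08 (limma adjusted p = 1.57e-04) and Sesn2 had 0.45 ± 0.11 (adjusted p = 0.0164). Sesn1 moved by night (-1.13; by day -0.11) and Sesn2 by day (0.76; by night 0.14). Glycolysis, with 16 tested genes, likewise gave Pdk1 in one direction and Hk2, a hexokinase, in the other. Of its 16 differences 14 were below 0 (median -0.10, against -0.02 over all genes). Hk2 (0.50, limma adjusted p = 0.0243) kept its call in 12 of 16 fits that left out 1 array. The call was lost without the ZT20 arrays of replicates 1 or 3 or the ZT8 arrays of replicates 1 or 4. Catalase, Cat, was the single called and agreeing gene of 21 in the antioxidant list, a share near the background (difference -0.33, limma adjusted p = 0.0432). It kept its call in 4 of 16 fits, those without the ZT16 array of replicate 1, the ZT20 or ZT8 array of replicate 4 or the ZT4 array of replicate 2, and adjusted p reached 0.0985 in the others.

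In the Wnt list 4 of 25 genes were called and agreeing, 3 higher at ZT4/ZT16 (background 3.95%) and 1 higher at ZT8/ZT20 (background 0.951%). Of these, Fzd6, a receptor (-0.33), Dkk3, a Dickkopf family member (-0.39), and Sfrp1, a secreted inhibitor (-0.27), were higher at ZT4/ZT16, and the ligand Wnt4 was higher at ZT8/ZT20 (0.49, limma adjusted p = 0.0177). In the Notch list Numb, an inhibitor of Notch, was called and agreeing, 1 of 17, a share near the background (-0.40, adjusted p = 0.00666). The other probe set of Numb had -0.09, and the mean of both had -0.24 with an adjusted p of 0.0812, so that the call ended. Srsf1, a splicing factor, was the single called gene among 31 of mRNA splicing (0.31, limma adjusted p = 0.0139, background 0.951%).

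Markers of other cell types contributed 3 called and agreeing genes, all higher at ZT4/ZT16. They were 1 of 6 Merkel, 1 of 10 Langerhans and myeloid and 1 of 12 bulge markers tested. Over all tested genes the share in this direction was 3.95%, and 80.6% of all called and agreeing genes had it. None was called in the lists of upper follicle (12 tested), fibroblast (8), endothelium (6), T cell (9), melanocyte (4), adipocyte (4), skeletal muscle (10) and red blood cell (5), where at most 3 genes (skeletal muscle) had an unadjusted p under 0.05. Krt8, a keratin of Merkel cells, had means of 4.85 at ZT4/ZT16 and 4.44 at ZT8/ZT20 and did not overlap (difference -0.41 ± 0.08, limma adjusted p = 0.00391). The Merkel list as a whole (6 of 9 above the limit for dim genes) had mean levels per array of 3.98 to 4.24 at ZT4/ZT16 and 3.87 to 4.16 at ZT8/ZT20, and its defining gene Atoh1 was at 3.65 and 3.63, under the limit. Cd68, a macrophage marker, had means of 4.88 and 4.47 (difference -0.41 ± 0.11, adjusted p = 0.0354) and kept its call in 5 of 16 fits that left out 1 array, with adjusted p up to 0.0806. Those 5 were without the ZT16 or ZT20 array of replicate 4, the ZT8 array of replicate 1 or the ZT4 arrays of replicates 1 or 4. The Langerhans and myeloid list (10 of 16 above the limit) ranged from 5.01 to 5.32 and from 4.95 to 5.33, and Ptprc and Lyz2 were under the limit. Dkk3 stood in the bulge list too (12 of 14 above the limit), which ranged from 6.78 to 7.08 and from 6.81 to 7.25. Of that list Cd34 and Lgr5 were under the limit. Krt15, also a basal marker, was at 12.17 and 12.13, and Sox9 at 9.39 and 9.75. With the cell mixture covariates the calls of Cd68, Dkk3, Ulk1, Cat, Chac1, Hyou1, Lipg, Cryab, Prdm1, Yipf6, Insig1, Sesn2, Hk2, Sec24a, Srsf1 and Nr1d2 ended. Cd68 and Dkk3 are themselves members of lists averaged in these scores, so the loss of their calls is partly fixed in advance. The part of these cells in the differences was not tested further.

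No core clock gene was called and agreeing, of 16 tested, and 3 had an unadjusted limma p under 0.05. In 13 of the 16 the steps had opposite signs, as a 24 h rhythm gives, and 10 had a called 24 h component while 1, Nr1d2, had a called 12 h component. Dbp, an output factor of the clock, had means of 4.52, 6.31, 7.79, 8.25, 6.31 and 4.87 from ZT0 to ZT20. It rose by 1.48 from ZT4 to ZT8 and fell by 1.43 from ZT16 to ZT20, which left a difference of 0.02. In Per3 the steps were 1.62 and -1.51.

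Nr1d2, a repressor of the clock, was called without agreement. Its means were 7.56, 8.62, 9.36, 9.33, 8.79 and 7.07 from ZT0 to ZT20, with a difference of -0.49 (limma adjusted p = 0.00708) from a day step of 0.74 and a night step of -1.72. ZT8 lay above both ZT4 and ZT16 and ZT20 far below them, so the rule of agreement left Nr1d2 out. Npas2, an activator, had -0.24 and an adjusted p of 0.0519, and its other probe set gave -0.84. Npas2 was called in 8 of 31 alternatives, with differences from -0.54 to -0.19 over all of them, so its call depended on the processing. No core clock gene had both times agreeing in this direction in the main fit, so the rule of agreement would have left Npas2 out as well.

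The arrays at ZT0 and ZT12 played no part in choosing the genes. They cannot show the sine part of a 12 h wave, but a 12 h wave needs equal levels at both. ZT12 minus ZT0 was called in 405 genes (3.16%) of all tested, in 17 of the 122 genes higher at ZT8/ZT20 (13.9%) and in 36 of the 507 higher at ZT4/ZT16 (7.10%). Over all 24 young arrays the 12 h component was called in 598 genes (4.66%), among them 318 of the 507 and 73 of the 122. The 24 h component was called in 1127 genes (8.79%), among them 86 of the 507 (17.0%) and 28 of the 122 (23.0%). The 12 h test shares 16 arrays with the choice of the genes, so the counts of members in it are a description.

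The daily courses had 2 peaks in each set, at times by which the genes were chosen. The peaks are thus largely fixed by the choice. The median level of the 507 genes, relative to each gene's own mean, was -0.03 at ZT0, 0.30 at ZT4, -0.17 at ZT8, -0.04 at ZT12, 0.14 at ZT16 and -0.20 at ZT20. The peak at ZT4 was thus higher than that at ZT16. The median of the 122 genes was 0.07, -0.22, 0.15, 0.06, -0.26 and 0.22 at the same times. In 293 of the 507 both ZT0 and ZT12 lay under both ZT4 and ZT16, an order found in 13.6% of all genes, and in 76 of the 122 both lay above both, found in 12.5% of all. The levels at ZT0 and ZT12 do not enter the choice, but those at ZT4 and ZT16 do, so these shares are partly fixed by it.

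**Figure D4:**
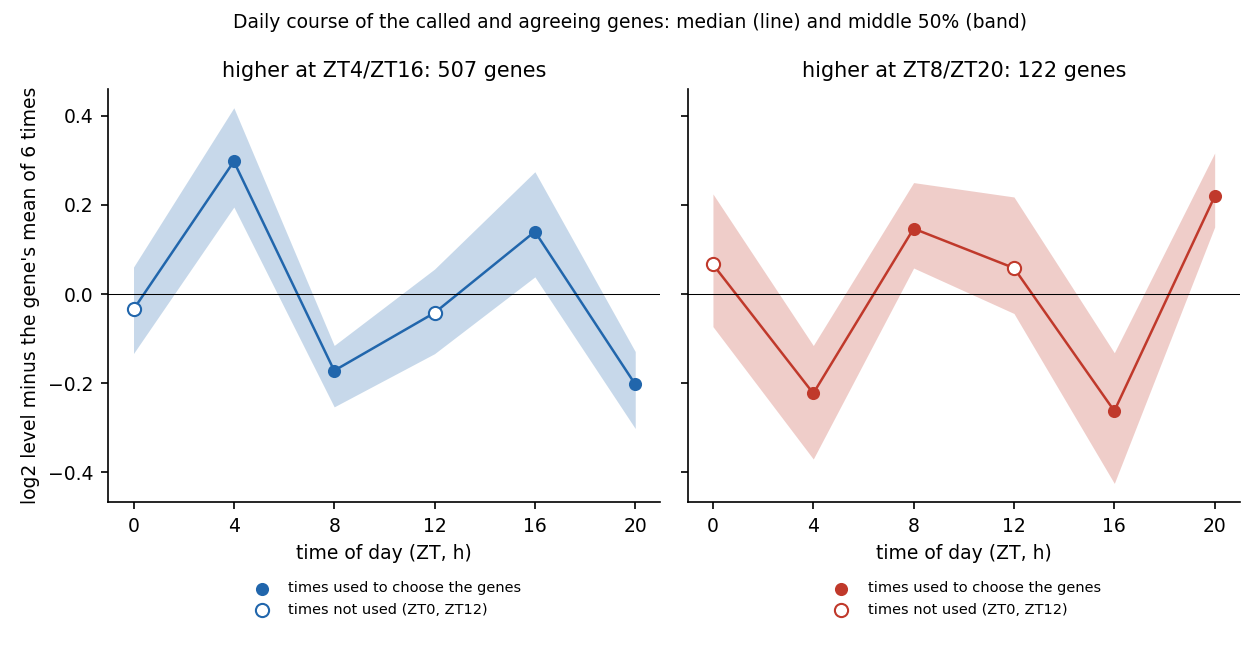
Lines give the median and bands the middle 50% of the log2 level minus each gene's mean over 6 times, by time of day (ZT, h), for the 507 genes higher at ZT4/ZT16 (left) and the 122 higher at ZT8/ZT20 (right); open circles are the times that did not choose the genes. The left set peaks at ZT4 (0.30) and ZT16 (0.14), and the right set at ZT8 (0.15) and ZT20 (0.22), times by which the genes were chosen.

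In aged cells the medians of the same genes lay nearer to 0. The median difference at the same times in aged cells was -0.11 for the 507 genes (young -0.40) and 0.12 for the 122 (young 0.45). Since the genes were chosen on the young arrays, their young values are the larger by choice. In aged cells 350 genes (2.73%) were called, agreeing and higher at ZT4/ZT16, and 440 (3.43%) higher at ZT8/ZT20. Of the 507, 60 were called and agreeing in the same direction and 32 in the opposite one. Of the 122, 9 were in the same direction and 3 in the opposite one. The difference between ages itself was called in 437 genes (3.41%), among them 110 of the 507 (21.7%) and 15 of the 122 (12.3%). The choice on young values raises these shares as well.

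Genes that passed in aged cells in the same direction included Papln (-0.64), Sectm1b (-0.81) and Slc43a2 (-0.94) among those higher at ZT4/ZT16. Sesn1 had -0.62 in each age. Among those higher at ZT8/ZT20, Chek1 (0.41), Hsph1 (0.33) and Srsf1 (0.30) passed in aged cells.

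Some genes had the pattern in both ages with opposite sign. Mlf1, a myeloid leukemia factor, was higher at ZT8/ZT20 in young cells (difference 0.56) and lower in aged cells (-1.79). Its aged levels were 7.58, 7.33, 7.01 and 6.92 at ZT4, 5.33, 5.19, 5.29 and 5.67 at ZT8, 7.46, 6.39, 6.96 and 6.31 at ZT16, and 5.34, 5.07, 4.77 and 4.99 at ZT20. All 8 aged arrays of ZT4 and ZT16 lay above the other 8, and the difference between ages was -2.35 (limma adjusted p = 5.95e-09).

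Apol8 ran the other way. In young cells its levels were 7.33, 7.84, 6.82 and 7.73 at ZT4, 5.65, 5.02, 6.13 and 5.36 at ZT8, 5.59, 6.28, 7.03 and 6.20 at ZT16, and 5.95, 5.12, 6.17 and 5.64 at ZT20. In aged cells they were 6.15, 6.00, 5.78 and 5.51 at ZT4, 7.59, 7.47, 7.51 and 7.47 at ZT8, 5.55, 6.31, 6.05 and 6.21 at ZT16, and 7.22, 7.24, 8.12 and 7.63 at ZT20. The aged sides did not overlap, with ZT8 and ZT20 the higher. The difference was -1.22 in young and 1.59 in aged cells, and the 2 differed by 2.81 (limma adjusted p = 5.45e-08).

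Camk1g, a calcium-dependent kinase, had -0.89 in young and 1.47 in aged cells (difference between ages 2.36, limma adjusted p = 9.64e-09), and its aged sides did not overlap either. Polg2 had -1.02 and 0.89 (1.91, adjusted p = 1.68e-07), and Ppp1r10, a regulatory subunit of protein phosphatase 1, -0.50 and 1.07 (1.57, adjusted p = 7.17e-08). Spry1 had 0.50 and -0.65 (-1.16, adjusted p = 4.40e-06), and Wipi2 -0.38 and 0.35 (0.73, adjusted p = 4.93e-06). For the 5 genes with the smallest p of the difference between ages, Mlf1, Camk1g, Apol8, Ppp1r10 and Polg2, the choice was made on that difference, and the values are given as a description.

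**Figure D5:**
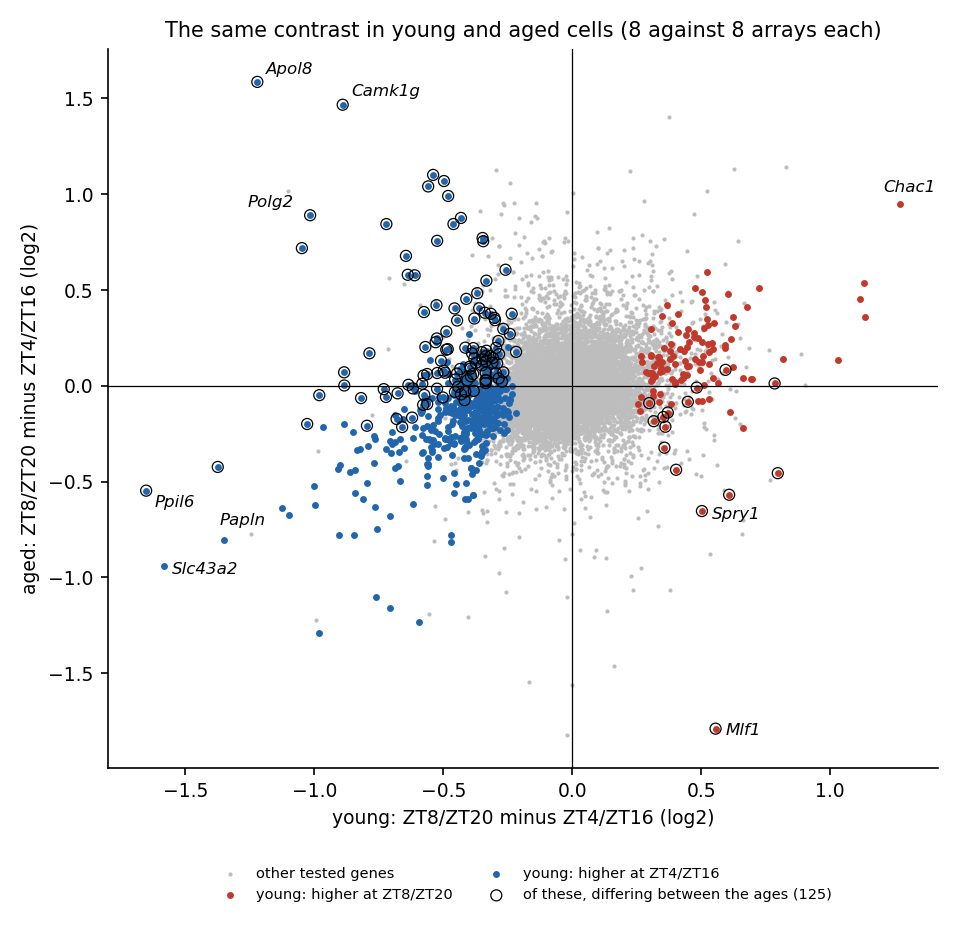
Each point is 1 of 12823 genes, with the mean of ZT8 and ZT20 minus the mean of ZT4 and ZT16 (log2) in young cells on the horizontal axis and in aged cells on the vertical axis (8 against 8 arrays in each); blue and red mark the 507 and 122 genes called and agreeing in young cells, and circles the 125 of them whose difference between ages was called. Apol8, Camk1g and Polg2 lie upper left and Mlf1 lower right, with opposite signs in the 2 ages.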

How the data were processed

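RNA was extracted with TRizol, amplified with the WTA2 kit, labelled with biotin and hybridised to 1-colour Affymetrix arrays, per the labels' protocols. The authors deposited log2 expression values per probe set, summarised with RMA per the submitters' processing notes. RMA corrects background, gives all arrays 1 distribution of values and combines the probes of a set. The sources used here do not give its version or whether it ran on all arrays at once. A common distribution would hide a shift shared by most genes. Arrays have no read depth, so their number limits the precision.

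Values were used as deposited. Of 45141 probe sets, 28898 carry 1 gene symbol, 551 several and 15692 are not named here. Each of 17097 genes was represented by its probe set with the highest mean, and the lowest 25% of gene means (under 3.96) were left out as dim, which left 12823 genes. Limma 3.58.1 in R 4.3.3 (lmFit, eBayes) fitted the 4 time means of the 16 young arrays, with Benjamini-Hochberg adjustment over all tested genes and a threshold of 0.05. F tests of 12 h and 24 h components used 24 young arrays, and the difference between ages used 32 arrays. The fits were tested on simulated data.

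Genes named are the 10 largest differences in each direction, the core clock, up to 3 called genes of each list with the smallest p, up to 10 genes passing in both steps, and 5 with the smallest p of the difference between ages; others are said to be chosen after their values were seen, or belong to the lists and counts they stand in. There were 38 lists (25 pathways, 13 cell types) with 679 tested genes, and 3 added lists. The comparison and the lists were chosen with earlier results of these data known. Alternatives changed the filter, probe sets, normalisation, weights, variance model, samples, covariates and each array in turn. Promoters are from RefSeq (GRCm38.p6).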

Additional observations from a re-analysis of the deposited data

Results flagged for a closer look

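The replicate values of 73 named genes were compared within the 4 young times, 292 groups of 4 arrays. In 18 of them 1 array lay far from the others by Dixon's test, where about 1 in 20 (14.6) would do so by chance. Cryab had 6.44 on the ZT4 array of replicate 1 (others 5.80 to 5.90) and 4.63 on the ZT16 array of replicate 4 (others 5.33 to 5.44). Prdm1 had 4.65 on the ZT16 array of replicate 1 (others 6.26 to 6.47). On the same ZT16 array Papln had 7.80 (others 7.38 to 7.44), Ulk1 had 9.42 (others 9.15 to 9.18) and Ablim3 had 10.42 (others 10.32). On the ZT4 array of replicate 1 Clock had 5.93 (others 6.68 to 6.80) and Sesn1 had 8.98 (others 9.36 to 9.41).

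Ppil6 had 8.20 on the ZT16 array of replicate 2 (others 8.60 to 8.66), and Hsph1 had 9.27 on it (others 9.02 to 9.05). Per2 had 4.97 on the ZT4 array of replicate 2 (others 5.50 to 5.56) and 5.78 on the ZT20 array of replicate 2 (others 6.28 to 6.34), where Insig1 had 8.80 (others 8.15 to 8.18). Ciart had 6.80 on the ZT16 array of replicate 3 (others 6.25 to 6.34). Mcm4 had 6.95 on the ZT8 array of replicate 3 (others 7.18 to 7.21), where Ppp1r10 had 8.80 (others 8.39 to 8.45). Pdk1 had 9.10 on the ZT4 array of replicate 4 (others 9.18 to 9.20), and Gabarapl1 had 10.26 on the ZT20 array of replicate 3 (others 10.43 to 10.45).

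In 24 named genes the difference between ZT8/ZT20 and ZT4/ZT16 was itself different in aged and young cells (limma adjusted p under 0.05). The aged difference minus the young one was above 0 in Apol8 (2.81), Camk1g (2.36), Polg2 (1.91), Fam71a (1.77), Ppp1r10 (1.57), Ppil6 (1.10), Tmem140 (0.95), Cd68 (0.86), Pnpla7 (0.83), Krt8 (0.61), Stk38 (0.60), Pdk1 (0.59), Ablim3 (0.59), Ctsl (0.58), Ulk1 (0.53) and Fzd6 (0.49). It was below 0 in Mlf1 (-2.35), Prdm1 (-1.25), Ppargc1b (-0.77), Per1 (-0.54), Sec24a (-0.53), Creld2 (-0.51), Bhlhe40 (-0.50) and Mcm4 (-0.49). The calls of Tmem140 and Per1 were each lost in 23, and that of Sec24a in 21, of the 32 fits that left out 1 array.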

How the results depend on the processing

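No called difference of a named gene changed sign under any alternative. Uncalled differences near 0 did in Dbp (-0.04 to 0.16), Arntl, Clock, Per1, Per2, Per3, Hlf and Rora, as did uncalled differences between ages in some genes. The median difference over all genes turned to 0.01 with cyclic loess. Array weights gave 1317 genes called, 1034 called and agreeing, 172 in both steps, 1711 with a 12 h component and 1007 differing between ages. Comparing 8 with 8 arrays without the 4 time means gave 302 called genes, all 302 agreeing, and ended the calls of Abtb2, Mad2l1, Xpc, Hyou1, Ctsl, Angptl4, Fzd6 and Wnt4 among others. A fit over all 24 young or all 48 arrays ended, among others, those of Hk2, Insig1, Sec24a and Mcm3 (Mcm3: adjusted p = 0.0653 and 0.0538). Cell mixture covariates gave 416 called, 358 agreeing, 17 in both steps and 159 differing between ages, and a fit over all 48 arrays gave 49 in both steps and 258 differing between ages. Leaving out 1 array gave 539 to 809 called genes, 472 to 703 agreeing, 55 to 99 in both steps, 430 to 913 with a 12 h component (913 without the young ZT0 array of replicate 2) and 314 to 520 differing between ages. Alternatives chosen after seeing the data, 2 technical measures as covariates and leaving out the 2 arrays of lowest weight, gave 512 and 644 called and agreeing genes.

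Replicate numbers did not pair the arrays: deviations from the time means correlated by -0.042 on average for equal numbers (-0.40 to 0.35) and by 0.016 for different ones. With the replicate number as a block 560 genes were called and agreeing, 534 of them among the 629. Of the values of named genes under the alternatives, 2098 kept their side of the threshold, 152 fell below it and 8 rose above it; for their differences between ages these numbers were 2920, 93 and 48. Of the counts within lists 2361 stayed within 1.5 times and 181 moved further.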
